A study of Mus musculus with 6 samples.

Results

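The genes described here were 8 feedback inhibitors of NF-kB, chosen by name from 21938 protein-coding mouse genes: Nfkbia, Nfkbib, Nfkbie, Nfkbiz, Nfkbid, Bcl3, Tnfaip3 and Tnip1. Their members in the data were all peaks that touched the gene body or the 50 kb on either side of it. This gave 15 of the 4200 H3K27ac peaks under LPS, 0 of the 52 under PBS, 112 of the 73049 H3K4me1 peaks under LPS and 104 of the 64758 under PBS. Peaks were taken by position alone, and no peak value entered the choice.

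The cells were bone marrow-derived macrophages (BMDMs) of C57BL/6 mice, exposed during 1 h to LPS, the lipopolysaccharide of Gram-negative bacteria, or to PBS alone. CUT&RUN, in which an antibody guides a nuclease to chromatin and the released fragments are sequenced, profiled H3K4me1, a mark of enhancers, and H3K27ac, a mark of active enhancers and promoters, next to an IgG control. Each treatment and antibody had 1 library, so no value has a replicate error, no test between treatments was possible and differences describe these libraries. All positions are in GRCm38, distances run from the 5' end of the gene record (TSS) to the summit of a peak, and negative distances lie upstream. Counts of genes with a peak within a given distance include every peak that touches that span, and the strongest peak is the one with the highest −log10 q. For the cell type, genes with an H3K4me1 peak within 10 kb of the TSS were counted. Under LPS these were 8 of 8 macrophage marker genes, and under PBS 6 of 8, without Cd68 and Mertk. Of genes of other tissues they were 2 of 7, Ins2 and Pax6, under either treatment. Over all protein-coding genes the shares were 47.6% under LPS and 41.0% under PBS.

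In resting cells NF-kB dimers are held in the cytoplasm by IkB proteins, which are degraded once Toll-like receptor 4 senses LPS. The freed dimers switch on genes of inflammation and, with them, genes whose products stop the response: new IkB proteins that recapture the dimers, atypical IkB proteins that act in the nucleus, and the ubiquitin editing enzyme A20 with its partners. Nfkbia (IkBα), Nfkbib (IkBβ) and Nfkbie (IkBε) are cytoplasmic inhibitors, Nfkbiz (IkBζ), Nfkbid (IkBNS) and Bcl3 are nuclear ones, Tnfaip3 encodes A20 and Tnip1 encodes the A20-binding protein ABIN1.

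Promoter sequences are shown first, because 6 of the 7 genes with an entry in the RefSeq promoter table (GRCm38.p6, 250 bases before to 50 bases after a start) held the NF-kB consensus there. Over all 27025 genes of the table the share with this consensus was 5.14%. The genes had been chosen as known NF-kB feedback genes, and the libraries did not measure the factor. The 6 genes were Nfkbia, Nfkbie, Nfkbid, Bcl3, Tnfaip3 and Tnip1, and the promoter of Nfkbib held no match. The AP-1 motif TGANTCA was in 2 of the 7 genes against 8.97% of all, and GAGGAA, the core of sites of the macrophage factor PU.1, was in 1 of the 7 against 31.25%. Motifs were read on both strands, and a match is a description of letters and not a bound site.

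At Tnip1 and Nfkbie an H3K4me1 peak lay on the consensus itself, so the 250 bases before the RefSeq start are printed 5' to 3' for both, with the consensus in capitals.
Tnip1 promoter, chr11:54962941-54963190, minus strand: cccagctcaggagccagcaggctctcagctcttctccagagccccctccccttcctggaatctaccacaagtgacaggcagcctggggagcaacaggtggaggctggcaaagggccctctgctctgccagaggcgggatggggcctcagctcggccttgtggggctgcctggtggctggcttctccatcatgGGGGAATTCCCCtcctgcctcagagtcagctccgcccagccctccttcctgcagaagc
Nfkbie promoter, chr17:45555450-45555699, plus strand: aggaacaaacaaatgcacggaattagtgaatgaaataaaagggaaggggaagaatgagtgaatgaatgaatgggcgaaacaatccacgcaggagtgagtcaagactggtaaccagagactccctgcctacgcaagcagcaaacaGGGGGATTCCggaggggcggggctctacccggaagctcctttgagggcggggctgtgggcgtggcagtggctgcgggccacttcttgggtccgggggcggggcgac

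The capitals in the Tnip1 promoter are 3 overlapping matches in 1 palindromic run, beginning 58, 57 and 56 bases before the start. They lay under an H3K4me1 peak in both lists, chr11:54962953-54963212 under LPS and chr11:54962956-54963208 under PBS. The Nfkbie match begins 106 bases before the start and lay under the PBS H3K4me1 peak at chr17:45555488-45555672, while the nearest LPS H3K4me1 peak ended 542 bp away. Of the 10 matches in these promoters, 3 lay under an LPS H3K4me1 peak, 4 under a PBS H3K4me1 peak and 0 under an H3K27ac peak of either list. By gene this was 1 under LPS H3K4me1 and 2 under PBS H3K4me1. Over all protein-coding genes, a peak touched the 1 kb on either side of an annotated start for 26.8% (LPS H3K4me1), 18.6% (PBS H3K4me1) and 5.67% (LPS H3K27ac). That span is much wider than a match, so these shares are no background for the counts of matches. The share of consensus matches under a peak over all promoters was not computed.

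The other promoter matches are shown with 10 bases on each side, again with the consensus in capitals, because the distance from them to the marks differed between the genes.
Nfkbia site, chr12:55492657-55492686, minus strand: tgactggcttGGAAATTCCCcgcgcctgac
Nfkbid site A, chr7:30422170-30422199, plus strand: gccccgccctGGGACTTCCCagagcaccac
Nfkbid site B, chr7:30422215-30422244, plus strand: gggccgaacaGGAATTCCCCgtgcgcgggg
Bcl3 site, chr7:19822734-19822763, minus strand: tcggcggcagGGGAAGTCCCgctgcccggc
Tnfaip3 site A, chr10:19015516-19015545, minus strand: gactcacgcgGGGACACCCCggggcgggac
Tnfaip3 site B, chr10:19015403-19015432, minus strand: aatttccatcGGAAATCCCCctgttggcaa

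The nearest called LPS H3K27ac peak was 1225 bp from the Nfkbia match and 990 bp and 1103 bp from the Tnfaip3 matches. It was 2084 bp and 2129 bp from the Nfkbid matches and 48515 bp from the Bcl3 match. These are distances to called peaks in a shallow list, and a missing peak does not show that the mark was absent. The nearest PBS H3K4me1 peak was closer than the nearest LPS H3K4me1 peak for each of these matches: 758 against 2524 bp at Nfkbia and 660 against 1499 bp at Bcl3. At the Tnfaip3 match B, 12 bases before the RefSeq start, the distances were 3449 bp to a PBS peak and 16962 bp to an LPS peak.

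The same motifs were sought around the H3K27ac summits, in a shorter span than in the promoters and not over whole peaks. The 201 bases centred on each of the 15 LPS H3K27ac summits held 0 NF-kB consensus matches, against 3.0% of the windows of all 4200 peaks, so that most peaks of this list lacked it. The AP-1 motif was in 1 of 15 windows (6.4% of all) and the PU.1 core in 4 of 15 (21.43% of all). The windows of the widest Tnfaip3 peak, the only Nfkbia peak and the only Bcl3 peak are printed, with the AP-1 and PU.1 letters in capitals.
Tnfaip3 upstream summit, chr10:19063304-19063504, plus strand: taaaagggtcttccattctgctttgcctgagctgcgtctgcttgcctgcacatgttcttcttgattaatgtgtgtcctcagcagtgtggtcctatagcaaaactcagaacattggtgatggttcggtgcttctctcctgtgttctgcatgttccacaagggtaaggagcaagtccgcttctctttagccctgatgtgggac
Nfkbia intron summit, chr12:55491320-55491520, plus strand: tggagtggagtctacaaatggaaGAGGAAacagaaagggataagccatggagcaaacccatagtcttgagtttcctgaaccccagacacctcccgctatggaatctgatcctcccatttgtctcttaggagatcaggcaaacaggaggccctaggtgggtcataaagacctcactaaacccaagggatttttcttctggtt
Bcl3 window summit, chr7:19871324-19871524, plus strand: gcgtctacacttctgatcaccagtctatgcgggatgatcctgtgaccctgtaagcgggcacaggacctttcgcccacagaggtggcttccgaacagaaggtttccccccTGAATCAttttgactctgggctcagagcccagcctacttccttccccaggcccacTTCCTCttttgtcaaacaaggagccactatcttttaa

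The Tnfaip3 window held none of the 3 motifs, the Nfkbia window held GAGGAA, and the Bcl3 window held 1 AP-1 match and, on the other strand, GAGGAA. Most of the wide Tnfaip3 peak lay outside its window and was not searched.

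Under LPS, 5 of the 8 genes had at least 1 H3K27ac peak in their window: Tnfaip3 had 6, Nfkbid 4, Nfkbib 3, Nfkbia 1 and Bcl3 1. Of all protein-coding genes 27.7% had one, and of the 16638 genes with an H3K4me1 peak in their window 35.0% had one. Nfkbie, Nfkbiz and Tnip1 had none. Under PBS, 0 of the 8 windows held an H3K27ac peak, against 0.588% of all protein-coding genes in a list of 52 peaks, so 0 of 8 is close to that background. The PBS H3K27ac peak nearest to any of the 8 gene bodies was 3003726 bp away, from Nfkbib. The plot of peaks around the 8 genes shows these positions.

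**Figure D1:**
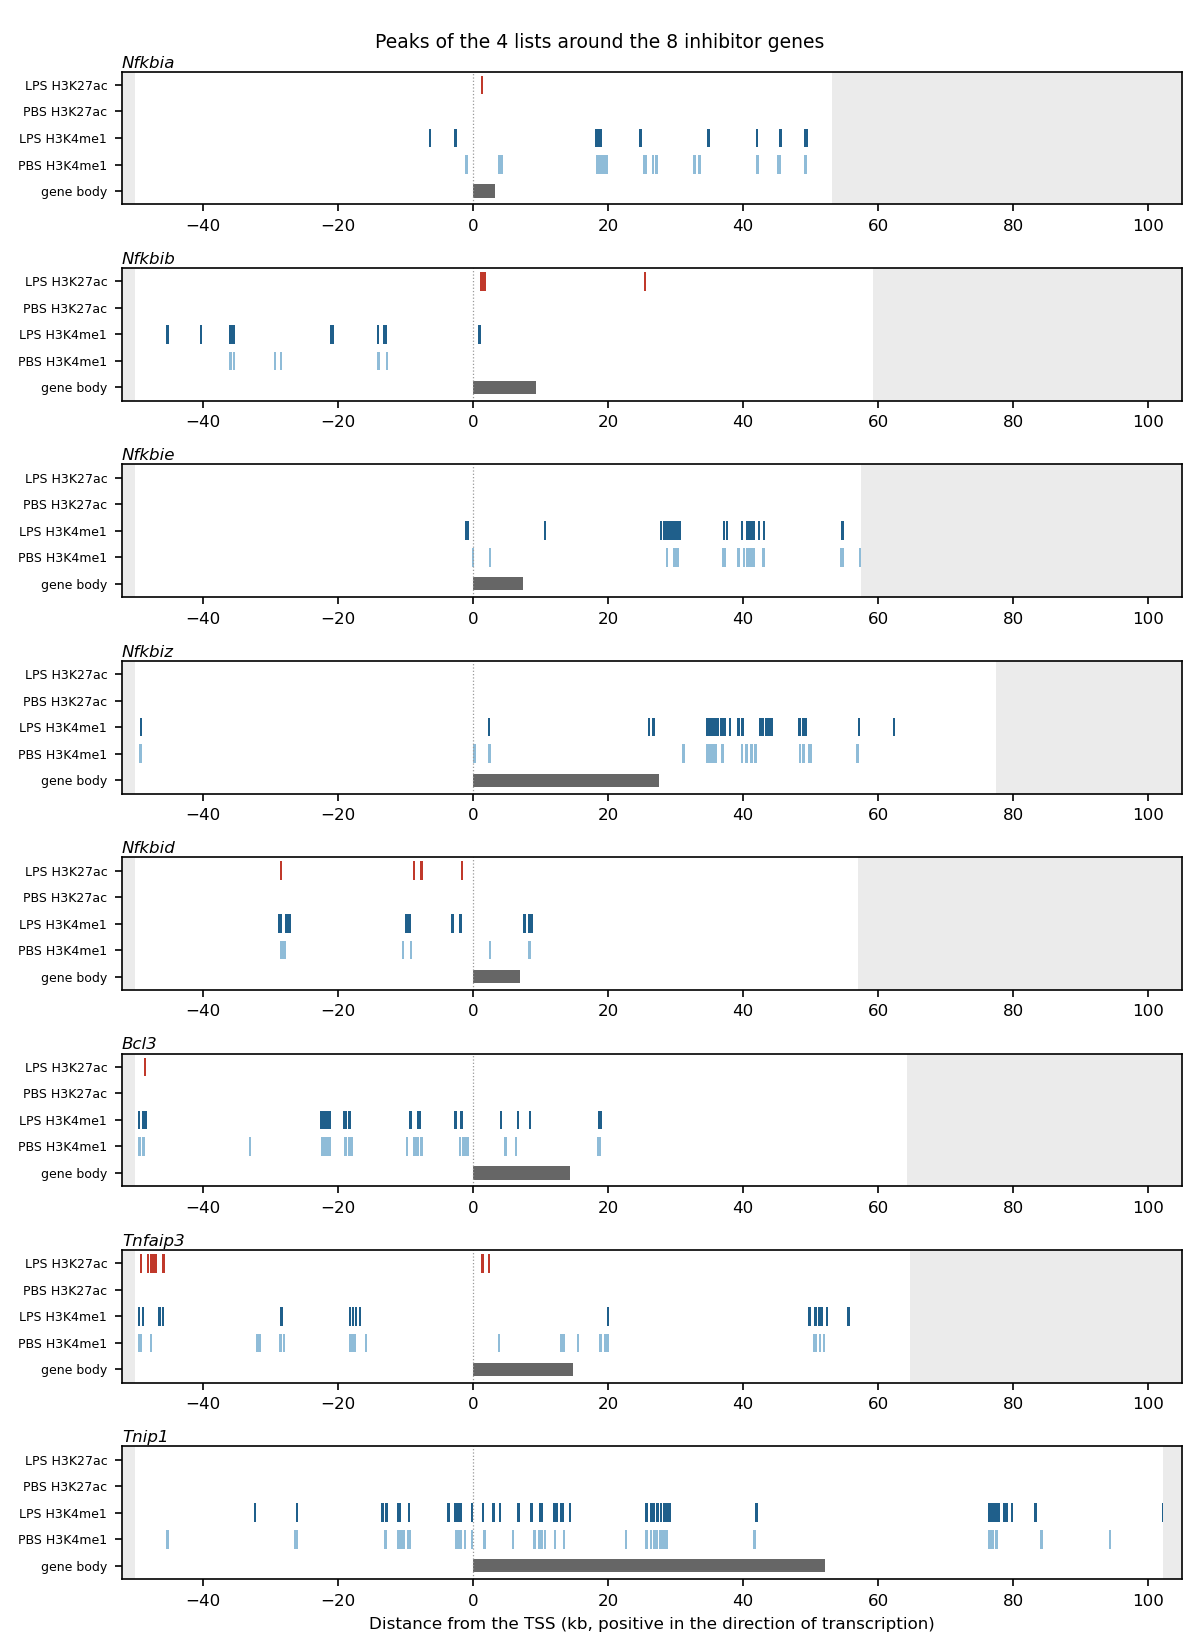
Peaks of the 4 lists (red LPS H3K27ac, pink PBS H3K27ac, dark blue LPS H3K4me1, light blue PBS H3K4me1) in the window of each gene, against distance from the TSS in kb, positive in the direction of transcription. The grey bar is the gene body, and shaded ends are outside the window of 50 kb on each side. LPS H3K27ac peaks appear at 5 of the 8 genes, with 4 of the 6 Tnfaip3 peaks bunched near the upstream end, and the PBS H3K27ac row is empty for all 8.

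The count depended on how close a peak had to be. Of the 8 genes, 4 had acetylated peaks under LPS at most 10 kb from the TSS (Nfkbia, Nfkbib, Nfkbid and Tnfaip3), against 8.92% of all protein-coding genes. Within 1 kb of the TSS of the gene record it was 0 of 8, against 5.01%. Counting peaks that touched the 1 kb on either side of any annotated TSS of the gene it was 2 of 8 (Nfkbib and Tnfaip3), against 5.67%. With the summit itself within 1 kb it was 1 of 8 (Nfkbib, against 5.55%), and still 0 of 8 for the TSS of the gene record, against 4.9%. By the nearest protein-coding TSS, 9 of the 15 peaks belonged to 3 of the genes (6 to Tnfaip3, 2 to Nfkbib and 1 to Nfkbia), and 11.2% of all genes had such a peak. The other 6 lay nearer to 4 other genes: Tyrobp, Hcst, Sars2 and Ceacam16.

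**Figure D2:**
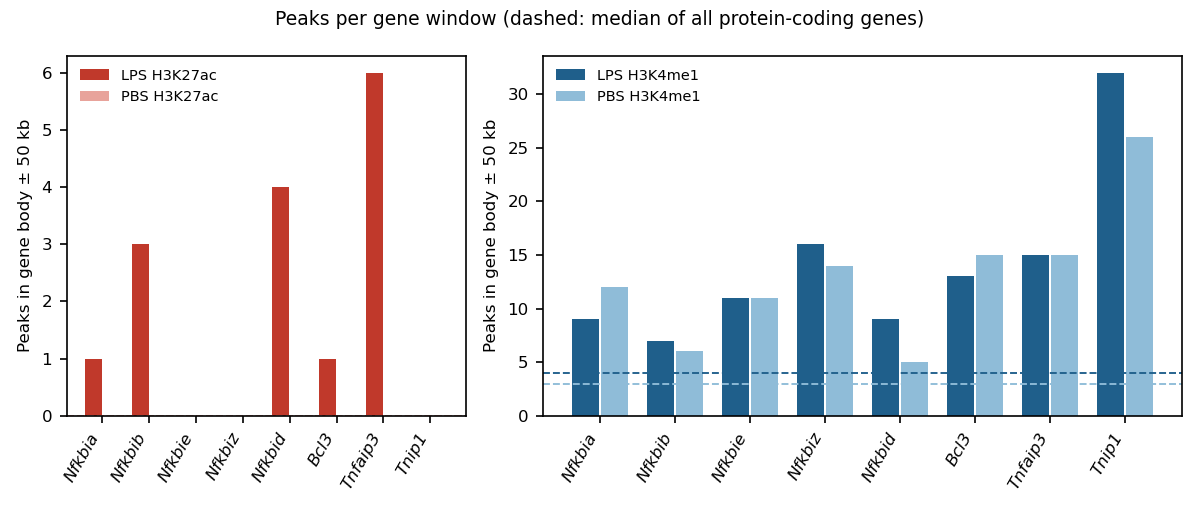
Number of peaks in the window of each gene, for H3K27ac on the left and H3K4me1 on the right, with LPS dark and PBS light and the median of all protein-coding genes dashed. Tnfaip3 has the most H3K27ac peaks as called, with 6, and Tnip1 the most H3K4me1 peaks with 32 and 26. Each bar is 1 library, so there is no error bar, and the H3K27ac medians lie at 0.

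Tnfaip3, whose A20 protein removes activating ubiquitin chains from signalling proteins upstream of NF-kB, had the most H3K27ac peaks of the 8 genes as called. Among its upstream peaks, and among its intronic peaks, each lay less than 1000 bp from the next. With peaks within 1000 bp merged, Nfkbid had more regions than Tnfaip3, so the lead held only for peaks as called. The shares that follow are also for peaks as called. At least 6 LPS H3K27ac peaks were found in the windows of 0.456% of protein-coding genes, and 0.119% of genes had at least 6 for which they held the nearest TSS. No other protein-coding gene lay in this window. A group of 4 peaks spanned 3651 bp, chr10:19061368-19065018, near the upstream end of the window, with 1836 bp inside peaks. Its largest peak, chr10:19062428-19063494, was 1067 bp wide, the fifth widest of the list, where the median width was 150.5 bp. It lay 47747 bp upstream, had 14 fragments at the summit and ranked 68 of 4200 by q-value. Its fold enrichment was 9.99, which is coverage at the summit over the local background, with a constant added to both.

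The neighbours of that peak were weaker. The peak at chr10:19064708-19065018 (311 bp, 49176 bp upstream) had a fold enrichment of 8.66 with 12 fragments and ranked 175. The peak at chr10:19061368-19061664 (297 bp, 45835 bp upstream) had a fold enrichment of 7.33 with 10 fragments and ranked 567. The smallest, chr10:19063781-19063941 (161 bp, 48205 bp upstream), had 7 fragments and ranked 1618. H3K4me1 at these 4 peaks differed. The peak ranked 175 overlapped both H3K4me1 lists, the peak ranked 567 overlapped LPS H3K4me1 only, the widest peak overlapped PBS H3K4me1 only with LPS H3K4me1 166 bp away, and the smallest overlapped neither.

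**Figure D3:**
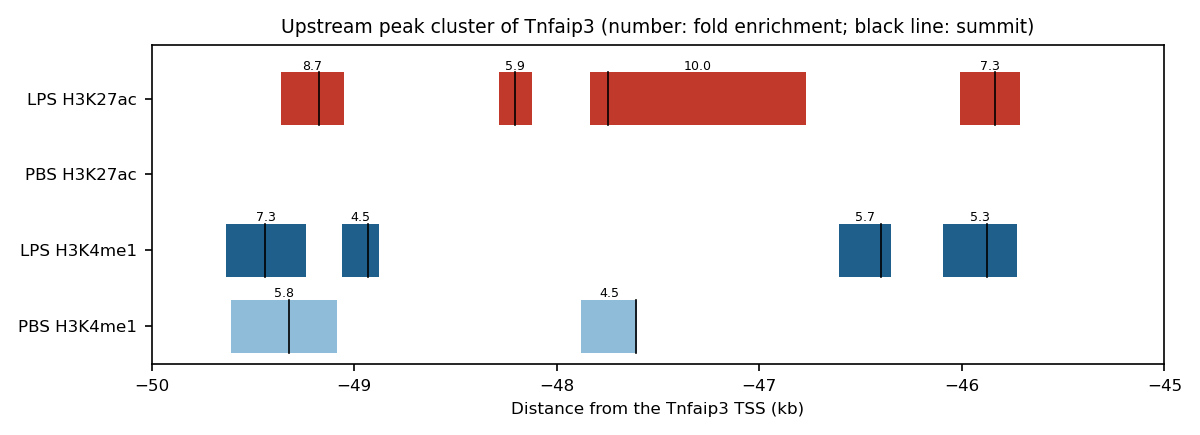
The upstream peak group of Tnfaip3 in the 4 lists, against distance from the TSS in kb. Boxes are peaks, black lines are summits and numbers are fold enrichments, which are comparable within a row only. The 4 LPS H3K27ac peaks lie over and beside 4 LPS and 2 PBS H3K4me1 peaks, and the PBS H3K27ac row is empty.

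The other 2 Tnfaip3 peaks lay in introns, 1284 bp and 2201 bp downstream of the TSS, with 7 and 8 fragments and ranks of 2270 and 1506. Neither overlapped H3K4me1. Around this gene body the H3K4me1 lists diverged. Under PBS the nearest summit to the TSS was 3828 bp downstream, which is 134 bp downstream of another annotated start of the gene. The strongest PBS peak of the window, chr10:19002069-19002805, lay 13333 bp downstream with a fold enrichment of 9.39. It was in the gene's own untranslated region and overlapped no LPS H3K4me1 peak. Under LPS the nearest summit was 16804 bp upstream, and the strongest peak, chr10:19033753-19034001 with a fold enrichment of 10.8, lay 18177 bp upstream and overlapped PBS H3K4me1. The window held 15 H3K4me1 peaks in either list, covering 4.59 kb under LPS and 6.79 kb under PBS.

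Tnip1, which helps A20 by binding ubiquitin chains, had no H3K27ac peak, and the nearest was 335081 bp from its TSS. It had the most H3K4me1 of the 8 genes in the longest window (152.1 kb): 32 peaks covering 13.22 kb under LPS and 26 peaks covering 11.72 kb under PBS. Of all protein-coding genes, 97.76% had fewer LPS H3K4me1 peaks in their window. The promoter peak over the NF-kB consensus had its summit 178 bp upstream under LPS (fold enrichment 4.35, 23 fragments) and 162 bp upstream under PBS (fold enrichment 6.36, 22 fragments). The strongest PBS peak by q lay in an intron, chr11:54934030-54934889, with 43 fragments and a fold enrichment of 7.98, below the 9.10 of chr11:54972963-54974171, and the strongest LPS peak lay beyond the gene, chr11:54884806-54886673, nearest to Gpx3.

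Among the cytoplasmic inhibitors Nfkbia, the classical early feedback gene, had a single H3K27ac peak, chr12:55491318-55491442, in its own intron 1227 bp downstream of the TSS. It was 125 bp wide, with a fold enrichment of 4.76 and 8 fragments, and ranked 3261 of 4200. No H3K4me1 peak overlapped it, the nearest being 1992 bp away under PBS and 3758 bp under LPS. The window held 9 H3K4me1 peaks covering 3.22 kb under LPS and 12 covering 6.12 kb under PBS. The strongest PBS peak, chr12:55466826-55467445 (fold enrichment 9.08, 37 fragments, 25635 bp downstream), overlapped no LPS peak, whereas the strongest LPS peak, chr12:55446820-55447398 (fold enrichment 10.5, 45434 bp downstream), overlapped a PBS peak. By fold enrichment the highest PBS peak was instead chr12:55447022-55447661, with 10.3, and it did overlap an LPS peak. Nearest to the TSS, the PBS list had a summit 1082 bp upstream and the LPS list 2616 bp upstream, and neither of these peaks was in the other list.

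Nfkbib had 3 H3K27ac peaks, and 4.21% of protein-coding genes had at least as many. The peaks at chr7:28766290-28766421 (14 fragments, rank 1588) and chr7:28765799-28765989 (9 fragments, rank 1783) had summits 149 bp and 644 bp downstream of an annotated TSS of the gene, in a coding exon and an intron. The third, chr7:28742028-28742179 with 11 fragments, lay in a coding exon of Sars2, 83 bp from its TSS. None overlapped H3K4me1, but an LPS H3K4me1 peak, chr7:28766539-28766741, began 118 bp from the first and had its summit −75 bp from another annotated start of the gene, inside the Nfkbib gene record and −20 bp from a start of Sirt2. The nearest PBS H3K4me1 summit was 12751 bp upstream. The strongest H3K4me1 peaks of the window were chr7:28780178-28780842 under LPS, in an intron of Sirt2 with a fold enrichment of 9.53, and chr7:28803232-28803674 under PBS, with a fold enrichment of 7.43. In 7 LPS and 6 PBS H3K4me1 peaks, none had its nearest TSS in Nfkbib, and the window held 7 other protein-coding genes.

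Nfkbie had no H3K27ac peak in its window. It had 11 H3K4me1 peaks in either list, covering 6.52 kb under LPS and 5.18 kb under PBS. Beside the promoter peak of the PBS list (fold enrichment 5.30, 18 fragments), the LPS list had a weak one with its summit 734 bp upstream (fold enrichment 3.13, rank 70924 of 73049). The strongest peak of any of the 8 genes in the LPS H3K4me1 list lay in this window, chr17:45583833-45586510, 2678 bp wide with a fold enrichment of 15.6, rank 568. It was in the untranslated region of Slc29a1, a nucleoside transporter gene, and the strongest PBS peak, chr17:45585320-45586213, lay inside it.

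Of the nuclear inhibitors, Nfkbid had 4 H3K27ac peaks in its window, but none had its nearest TSS in Nfkbid. At least 4 peaks were found for 1.86% of protein-coding genes. The closest, chr7:30419953-30420096, lay 1690 bp upstream of Nfkbid and −188 bp from the TSS of Hcst, an adaptor gene of immune receptors, with a fold enrichment of 6.77 and 11 fragments. The strongest, chr7:30413921-30414181, had a fold enrichment of 7.67, 12 fragments and rank 369, and lay in an intron of Tyrobp, another such adaptor. The peak at chr7:30412870-30413106 was −767 bp from the Tyrobp TSS. The peak at chr7:30393166-30393293, 28452 bp upstream of Nfkbid, was the only one of the 4 in H3K4me1, and it overlapped both lists at the strongest H3K4me1 peak of this window. The H3K4me1 summit nearest to the Nfkbid TSS was 2000 bp upstream under LPS, in Hcst, and 2418 bp downstream under PBS, in an intron of Nfkbid. H3K4me1 covered 3.26 kb in 9 peaks under LPS and 2.13 kb in 5 peaks under PBS.

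Bcl3, a nuclear partner of p50 and p52 homodimers, had 1 H3K27ac peak at the far end of its window, chr7:19871268-19871474, 48654 bp upstream, with a fold enrichment of 6.49, 12 fragments and rank 745. It lay in an exon of the non-coding gene Gm44659 and overlapped H3K4me1 in both lists. Nearer the gene, H3K4me1 was found in both lists −8116 bp (LPS, fold enrichment 10.3) and −8191 bp (PBS, fold enrichment 9.56) from the TSS, the strongest peak of the window in each by q. The PBS list also had a broad peak of 947 bp with its summit 1474 bp upstream and the higher fold enrichment of 10.1, overlapped by a 383 bp LPS peak with its summit 1727 bp upstream.

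Nfkbiz, the inducible nuclear IkB that also activates secondary response genes such as Il6, had no H3K27ac peak within 50 kb. The nearest, chr16:55757097-55757250 with 7 fragments, lay 54125 bp beyond the gene body, just outside the limit, and Nfkbiz had the nearest TSS. The next outside the limit were 56353 bp from Nfkbie and 56888 bp from Tnfaip3, and just inside were the Bcl3 peak and the Tnfaip3 group. Nfkbiz had 16 LPS H3K4me1 peaks covering 7.87 kb and 14 PBS peaks covering 5.83 kb, and 15 and 13 of these had it as the nearest gene. The strongest LPS peak, chr16:55794455-55795273 (fold enrichment 10.5, 43750 bp downstream), overlapped no PBS peak. The strongest PBS peak, chr16:55798881-55799280 (fold enrichment 6.63, 39912 bp downstream), overlapped an LPS peak. Nearest to the TSS, the LPS list had a summit 2496 bp downstream in an intron, which overlapped a PBS peak, and the PBS list one 139 bp downstream, which overlapped no LPS peak.

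Compared with the whole list, the 15 H3K27ac peaks were of ordinary to moderately high rank. Their median fold enrichment was 5.90 against 5.36 for all 4200 peaks, with 11 against 9 fragments at the summit, and 10 of 15 had a −log10 q at or above the list median. They were shallow, from 7 to 14 fragments each. With a −log10 q of at least 5, 6 of 15 were left (26.31% of the list): 3 at Tnfaip3, 2 at Nfkbid and 1 at Bcl3. The 3 at Tnfaip3 all lay in the upstream group, and the peaks nearest the starts of Nfkbia, Nfkbib and Tnfaip3 did not pass.

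**Figure D4:**
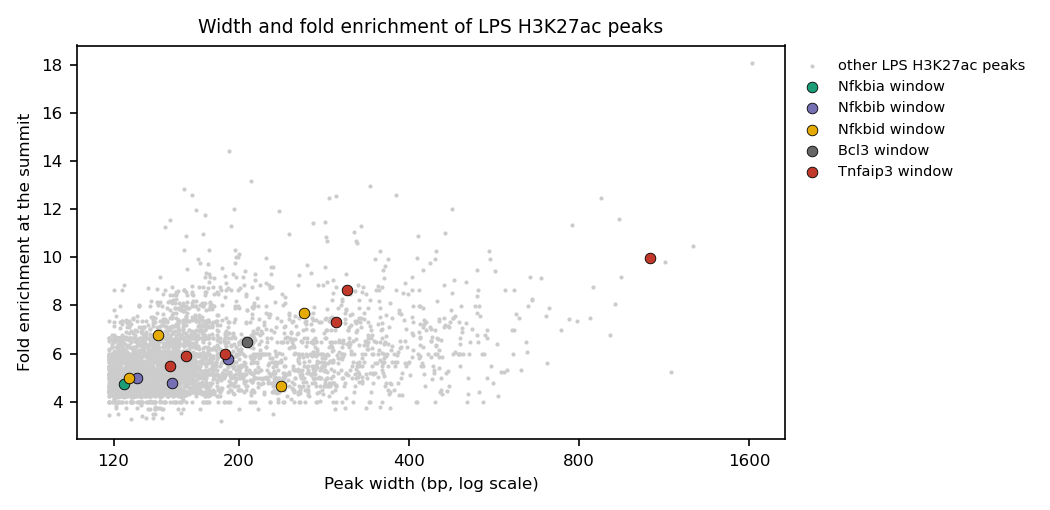
Width in bp (log scale) and fold enrichment at the summit of the LPS H3K27ac peaks, with all peaks in grey and those in the windows of 5 genes in colour. The widest coloured peak is the Tnfaip3 peak at 1067 bp and 9.99, and the Nfkbia peak at 125 bp and 4.76 lies among the smallest.

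H3K4me1 was in place around all 8 genes under PBS and under LPS, against 70.7% and 74.1% of all protein-coding genes. By the nearest TSS, 7 of the 8 genes had a peak of their own in each list, against 45.3% under PBS and 50.4% under LPS, and Nfkbib had none. Within 10 kb of the TSS it was found at 7 of 8 genes in each list, against 41.0% under PBS and 47.6% under LPS. Nfkbib was without a peak there under PBS, and Tnfaip3 under LPS. A peak touched the 1 kb on either side of an annotated start at 7 of 8 genes under PBS, against 18.6%, and at 3 of 8 under LPS (Nfkbib, Nfkbie and Tnip1), against 26.8%. The summit lay within 1 kb at 5 of 8 genes under PBS (Nfkbie, Nfkbiz, Nfkbid, Tnfaip3 and Tnip1), against 17.0%, and at the same 3 genes under LPS, against 24.7%, since the Nfkbia and Bcl3 peaks reached this span with their edge only. With the start of the gene record alone, 5 of 8 genes were touched under PBS (15.8%) and 3 of 8 under LPS (24.1%), while by summit it was 3 of 8 under PBS (14.4%) and 3 of 8 under LPS (22.0%). The difference at the gene record start was therefore not seen by summit. These were differences between single libraries and were not tested.

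The covered length differed in both directions. Summed over the 8 windows, H3K4me1 peaks covered 48.8 kb under LPS and 46.9 kb under PBS, a ratio of 1.04, where the ratio of the whole lists was 1.25. Nfkbia had the lowest ratio, 0.525, followed by Tnfaip3 with 0.676 and Bcl3 with 0.897, and 2.98%, 5.66% and 13.51% of 15118 protein-coding genes with both lists had lower ratios. Tnip1 (1.13), Nfkbie (1.26), Nfkbiz (1.35) and Nfkbid (1.53) lay near the median over genes, 1.34. Nfkbib was highest with 1.99. The 10th and 90th percentiles over genes were 0.819 and 2.51, so only Nfkbia and Tnfaip3 of the 8 lay outside them.

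**Figure D5:**
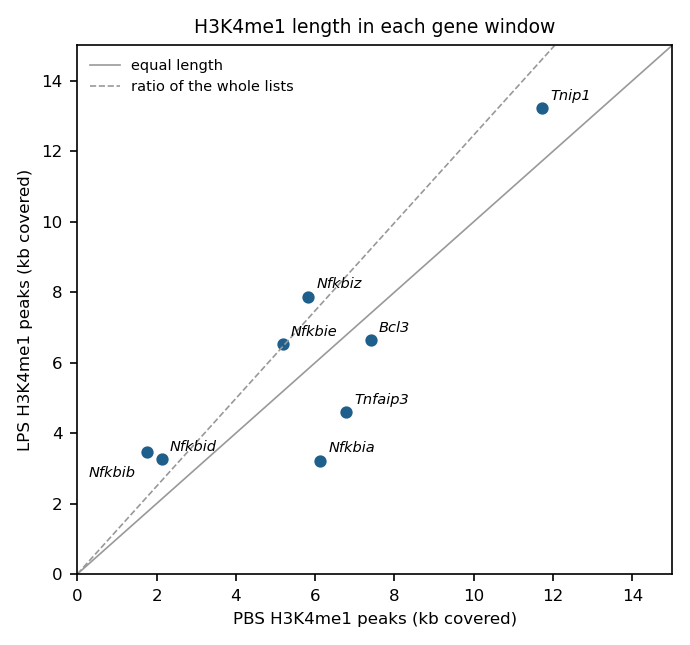
Length covered by H3K4me1 peaks in the window of each gene, PBS on the horizontal and LPS on the vertical axis, in kb. The solid line is equal length and the dashed line the ratio of the whole lists, 1.25. Nfkbia, Tnfaip3 and Bcl3 lie below the solid line, and the other 5 genes above it.

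The positions of H3K4me1 peaks were shared in part. Of the 104 PBS H3K4me1 peaks, 62 (59.6%, exact 95% Clopper-Pearson interval 49.5 to 69.1%) overlapped an LPS peak by at least 1 bp, against 73.1% of the list. Of the 112 LPS peaks, 62 (55.4%, 45.7 to 64.8%) overlapped a PBS peak, against 61.2%. The intervals cover counting error only. By gene the share of PBS peaks found again under LPS was lowest at Nfkbia with 5 of 12 and Tnfaip3 with 7 of 15, and highest at Tnip1 with 19 of 26. The peaks of these windows were also weaker than the lists, with a median fold enrichment of 5.65 against 6.10 under PBS and of 5.63 against 6.06 under LPS, and the part of peak strength in the overlap was not tested.

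Of the 15 LPS H3K27ac peaks, 4 (26.7%, 7.79 to 55.1%) overlapped PBS H3K4me1 and 4 overlapped LPS H3K4me1, against 29.9% and 33.6% of the list, both within the interval. Of the 15, 3 overlapped both lists, 1 LPS only, 1 PBS only and 10 neither. All 5 that overlapped lay more than 10 kb from the gene bodies, at Tnfaip3, Nfkbid and Bcl3.

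Other genes of the pathway were read in the same way, from 29 genes listed by role. Among the NF-kB subunits, 3 of 5 were acetylated under LPS within 10 kb of the TSS. These were Rela (363 bp downstream, 19 fragments, rank 248), Rel with 2 peaks and Nfkb1 with 2 peaks, and in all 3 genes a peak lay within 1 kb. Among kinases and adaptors it was 2 of 8, Tab2 and Ripk1, and among other negative regulators 3 of 16, Otulin, Rnf11 and Traf3. The Rnf11 peak, chr4:109475732-109476195, was the strongest of these with a fold enrichment of 10.99 and rank 31, and lay 8816 bp downstream of the TSS. Rnf11 is a ubiquitin ligase of the A20 complex. In the 50 kb windows the counts were 4 of 5, 3 of 8 and 9 of 16, and under PBS 0, 0 and 1 (Tnip2). Of all protein-coding genes 27.7% had an LPS H3K27ac peak in the window, 8.92% within 10 kb and 5.01% within 1 kb of the TSS. Of genes with an H3K4me1 peak in their window, 35.0% had an LPS H3K27ac peak there. Under PBS the window share of all protein-coding genes was 0.588%. The 29 genes were chosen with earlier results of these data known, and no difference was tested.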

How the data were processed

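For BMDMs after 1 h of LPS or PBS, CUT&RUN libraries were 1 each for H3K4me1, H3K27ac and IgG. The 4 peak lists were used, and the 2 IgG libraries entered no count here. The authors aligned paired-end reads to GRCm38 with Bowtie2 2.4.4 and called peaks per library with MACS2 2.2.7.1 in the nf-core CUT&RUN pipeline, without pooling. The deposited fold enrichment is a ratio of coverage at the summit, scaled by 1 factor per library, to local background, with 1 added to both. It is therefore lower than fragments divided by background. The deposited −log10 p-value and −log10 q-value are those of the summit. The deposited score, a rescaled −log10 q, was not used. Whether the IgG library served as the control of each list is not given in the sources used here, so the local background is the one MACS2 used, of unknown origin. These values were read within a list only.

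Genes and starts came from GENCODE M21, another release than the authors' on the same build. Peaks were assigned to windows by an overlap of at least 1 bp, and the nearest gene was the protein-coding gene with the nearest TSS. Fragments at each summit were recovered from fold enrichment and p together. The recovered values returned 100% of the deposited p-values within 0.002 (−log10). Scale and fragment number were fitted to these p-values, so the match describes the fit and is no separate check of the counts. The step was also tested on simulated data, with the result not given here. Library totals are not in the lists. A summit of 7 to 14 fragments carries a large counting error. Analyses used python 3.11.15, pandas 2.3.3 and scipy 1.17.1. Intervals are exact binomial and cover counting error only.

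All 8 genes are named, with every H3K27ac peak, and for H3K4me1 the strongest peak, the peak nearest the TSS and those overlapping H3K27ac. Genes, lists and motifs were chosen with earlier results of these data known. Alternatives were other window sizes, the nearest gene, stricter thresholds, merged peaks and other overlap rules.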

Additional observations from a re-analysis of the deposited data

How the results depend on the processing

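With 1 library per treatment and antibody no replicate could be left out. No paired analysis was possible because each group has 1 sample and no result comes from a test. Of 53 alternative values, 30 stayed within the limits set for them and 23 moved. The limits were wide for small counts. A change from 5 to 7 genes with an LPS H3K27ac peak was within them. So was a change from 26.7% to 53.3% of LPS H3K27ac peaks in LPS H3K4me1, so the 30 are no measure of stability. The 15 LPS H3K27ac peaks became 8 with 10 kb on each side of the gene body, 9 by nearest gene, 6 with a −log10 q of at least 5 and 9 when peaks within 1000 bp were merged. The 112 LPS H3K4me1 peaks became 46 and 170 with 10 kb and 100 kb on each side, 73 by nearest gene, 56 with the q limit and 65 when merged. The 104 PBS H3K4me1 peaks became 43, 158, 49 with the q limit and 67 when merged. Genes with an LPS H3K27ac peak fell from 5 to 3 by nearest gene (Nfkbia, Nfkbib, Tnfaip3) and to 3 with the q limit (Nfkbid, Bcl3, Tnfaip3), and the PBS H3K27ac count was 0 under every alternative. With 10 kb on each side, 0.0% of H3K27ac peaks overlapped either H3K4me1 list, with 8 peaks left. When the H3K27ac peaks were extended by 500 bp, 8 of 15 overlapped LPS H3K4me1 and 6 of 15 overlapped PBS H3K4me1, from 4 of 15 for each. When 50% of a peak had to be covered, it was 3 of 15 and 2 of 15. The share of PBS H3K4me1 peaks in LPS H3K4me1 was 44.2% when 50% of a peak had to be covered and 74.0% when peaks were extended by 500 bp, and the reverse share was 38.4% and 70.5%. These follow from the construction of each alternative. A limit at the smallest −log10 p of the PBS H3K27ac list, 6.91, chosen after seeing the data, kept 14 of the 15 peaks and 70.17% of the list. With the summit instead of any base of a peak within 1 kb of a start, also chosen after seeing the data, genes with LPS H3K27ac at any start went from 2 to 1 and genes with PBS H3K4me1 at the gene record start from 5 to 3. Few fragments per summit limit what a missing peak can show.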
